A study of Mus musculus with 15 samples.

Results

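Chaperone and chaperonin genes were taken as all genes whose single symbol in the platform annotation begins with Hsp or Dnaj, or with Cct and a digit. Where a gene had several probe sets, the one with the highest mean over the 15 arrays after quantile normalization was used. The rule found 55 genes among the 8221 genes with a single symbol, and 48 of them were among the 6764 genes that passed the filter on low values. By textbook location, 34 of the 48 work in the cytosol or nucleus, 6 in the endoplasmic reticulum (ER) and 6 in mitochondria. The other 2 were Dnajc4, which was not assigned, and Hspg2, which encodes the matrix proteoglycan perlecan and is caught by its symbol alone.

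Chaperones bind proteins that are unfolded or partly folded and help them reach or keep their native state. HSP70 proteins do this in cycles of ATP binding that J proteins (the Dnaj genes) start and nucleotide exchange factors such as the HSP110 proteins reset. The CCT chaperonin is a closed ring of different subunits in the cytosol on which actin and tubulin fold, and HSP60 with HSP10 forms the corresponding chamber in mitochondria. Embryonic stem (ES) cells are known for a high content of such proteins. Heat shock factor induces many cytosolic members through the heat shock element, and the unfolded protein response induces ER members through the ER stress response element.

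The study profiled total RNA of mouse ES cells on Affymetrix MGU74A arrays, which read each transcript with a set of short probes. There were 3 lines, each with 1 array at 0, 10, 30, 60 and 180 min of fetal bovine serum (FBS): E14wt, called wild-type here, E100-/-, called Srf-null, and E100-/- rescue, called rescue. Srf encodes serum response factor, a transcription factor that serum and actin signalling act on. The series asks how serum acts in ES cells of different Srf genotype. How the rescue was made, how many clones stand behind each line and whether arrays came from separate cultures are not stated in the labels. The time points of a line therefore stood for its replicates, and p-values measure only the spread between these arrays.

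All 9 ES cell markers lay above the detection floor of 84.98 normalized intensity units on all 15 arrays. Of these, Fgf4 and Nr0b1 were lower in rescue than in Srf-null cells from 10 min on, by -0.64 ± 0.11 and -0.68 ± 0.12 (SE, adjusted p = 0.0216 and 0.032, limma). The fibroblast, endoderm and trophoblast lists had 2 of 8, 0 of 6 and 2 of 6 markers above it on all arrays. From 10 min on, the summed trophoblast markers gave 756 to 2213 in Srf-null cells, 5032 to 6727 in wild-type and 8988 to 16630 in rescue cells. Krt8, Krt18 and Tfap2c carry this sum and over these arrays all 3 were called higher in rescue than in Srf-null cells. Eomes did not follow, at 174 to 344, 171 to 364 and 121 to 322 in Srf-null, wild-type and rescue cells, Hand1 was never above the floor and Cdx2 on 4 arrays only. Over all 15 arrays only Tfap2c was called higher in rescue than in Srf-null cells. At 0 min Krt8 and Krt18 gave 369 and 201 in rescue and 463 and 532 in Srf-null cells, while Tfap2c stayed higher in rescue. The part of any of these markers in the line differences was not tested. In such bulk samples fewer cells of a type and less RNA per cell cannot be told apart. The trimmed mean signal of the arrays before normalization ran from 348 to 1440. After normalization, the mean signal of the 18S ribosomal RNA control was 12200 to 20800 on 7 arrays and -160 to 2420 on the rest. The array labelled wild-type 0 min stood apart, with a ratio of the 3' to the 5' actin control of 7.53 against 0.847 to 4.22 elsewhere. It gave the lowest value of 11 of the 48 tested members and of 15.4% of all tested probe sets. Srf-null 0 min gave the lowest of 7 members and of 16.4% of all. The array labelled rescue 0 min had the next highest actin ratio. Line comparisons are therefore given for the 12 arrays from 10 min on, and again over all 15. Srf has no named probe set in the annotation, so the genotype labels were not checked on Srf itself.

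Several members share promoter elements, and the windows of those that the results turn on are printed here. RefSeq promoter windows (GRCm38.p6, 250 bases before to 50 after the transcription start) were found for 47 of the 55 members. The ER stress response element, searched on both strands as CCAAT and CCACG with any 9 bases between them, occurred in 3 members, Hspa5, Hsp90b1 and Dnajc3, and in 0.137% of the 27025 genes with a window. It includes a CCAAT box, which 23 of the 47 members and 41.1% of all genes carried. The 3 windows are chr2:34771840-34772139 on the plus strand, chr10:86705395-86705694 on the minus strand and chr14:118937682-118937981 on the plus strand, with the element in capitals. Hsp90b1 holds it once in each orientation.
Hspa5: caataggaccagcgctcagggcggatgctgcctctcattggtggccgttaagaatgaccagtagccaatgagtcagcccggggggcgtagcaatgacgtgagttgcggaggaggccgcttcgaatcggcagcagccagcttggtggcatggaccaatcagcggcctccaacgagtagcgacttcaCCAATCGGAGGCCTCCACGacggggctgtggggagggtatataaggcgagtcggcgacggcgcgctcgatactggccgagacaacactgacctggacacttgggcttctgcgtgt
Hsp90b1: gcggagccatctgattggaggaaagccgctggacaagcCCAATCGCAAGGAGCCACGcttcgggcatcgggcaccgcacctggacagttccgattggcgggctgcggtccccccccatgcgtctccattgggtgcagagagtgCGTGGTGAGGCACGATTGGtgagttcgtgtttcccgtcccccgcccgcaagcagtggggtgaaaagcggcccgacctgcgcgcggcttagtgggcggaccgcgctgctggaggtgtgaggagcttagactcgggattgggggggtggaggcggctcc
Dnajc3: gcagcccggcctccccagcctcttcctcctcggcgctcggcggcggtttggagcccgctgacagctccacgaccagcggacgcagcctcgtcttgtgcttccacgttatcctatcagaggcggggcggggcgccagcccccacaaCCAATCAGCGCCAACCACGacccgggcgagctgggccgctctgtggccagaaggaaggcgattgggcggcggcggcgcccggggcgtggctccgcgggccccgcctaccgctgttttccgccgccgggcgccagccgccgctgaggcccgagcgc

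The heat shock element, searched on both strands as 3 alternating units of GAA and TTC with NN (any bases) between them and either unit first, occurred in Dnajb6, Hspd1, Hspe1 and Hsph1, or 4 of 47 members, and in 0.662% of all genes. Hspd1 and Hspe1 lie head to head, and their windows overlap (chr1:55087883-55088182 on the minus strand and chr1:55087898-55088197 on the plus strand), so they share the same copies. Its shorter core, GAANNTTC or TTCNNGAA, which the longer form contains, occurred in 14 of 47 members, including Hspa1a and Hspa1b, and in 17% of all genes. The CArG box, the sequence that SRF binds, occurred in 0 of 47 members and 1.81% of all genes. This says only that no match lies in these 300 bases. Dnajb6 (chr5:29735648-29735947, plus strand, 13-letter element in capitals) is printed because it was higher in rescue cells on both of its probe sets. Hspa1a (chr17:34972107-34972406) and Hspa1b (chr17:34959189-34959488), both on the minus strand with the core in capitals, differ at 4 of 300 bases (98.7% identical) and are printed as a near-identical pair.
Dnajb6: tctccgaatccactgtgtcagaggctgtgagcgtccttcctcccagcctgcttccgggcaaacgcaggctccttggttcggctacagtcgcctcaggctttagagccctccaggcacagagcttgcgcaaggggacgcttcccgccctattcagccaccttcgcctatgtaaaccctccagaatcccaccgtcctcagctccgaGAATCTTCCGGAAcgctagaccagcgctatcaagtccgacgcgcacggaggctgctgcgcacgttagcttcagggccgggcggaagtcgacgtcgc
Hspa1a: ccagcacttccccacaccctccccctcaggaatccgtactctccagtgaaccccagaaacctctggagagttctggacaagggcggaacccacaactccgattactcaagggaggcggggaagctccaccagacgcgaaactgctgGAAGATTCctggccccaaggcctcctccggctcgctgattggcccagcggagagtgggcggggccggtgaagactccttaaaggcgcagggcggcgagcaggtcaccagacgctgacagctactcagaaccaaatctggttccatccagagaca
Hspa1b: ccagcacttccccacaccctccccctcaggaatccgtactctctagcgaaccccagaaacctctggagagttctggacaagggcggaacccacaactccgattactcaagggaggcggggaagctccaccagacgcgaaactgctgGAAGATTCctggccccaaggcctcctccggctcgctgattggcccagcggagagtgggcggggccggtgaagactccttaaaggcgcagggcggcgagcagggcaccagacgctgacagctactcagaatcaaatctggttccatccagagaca

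Of the 55 members, 30 lay above the floor on all 15 arrays. The 7 that did not pass the filter were Cct7, Cct8, Dnajb5, Dnajc10, Dnajc17, Hspb1 and Hspb11. Cct7 and Cct8 encode subunits of a ring that needs all its subunits, yet both were below 0 on every array. Such values say that these probe sets gave no usable signal, not that the transcripts are absent. Cct2 was likewise above the floor on 2 arrays only, and Hsp90b1, the ER member of the HSP90 family, on 8. Among tested members with a mean over 1000 units (23), the SD of log2 intensity over the 12 arrays had a median of 0.229, against 0.278 for the 3430 such probe sets in all.

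**Figure D1:**
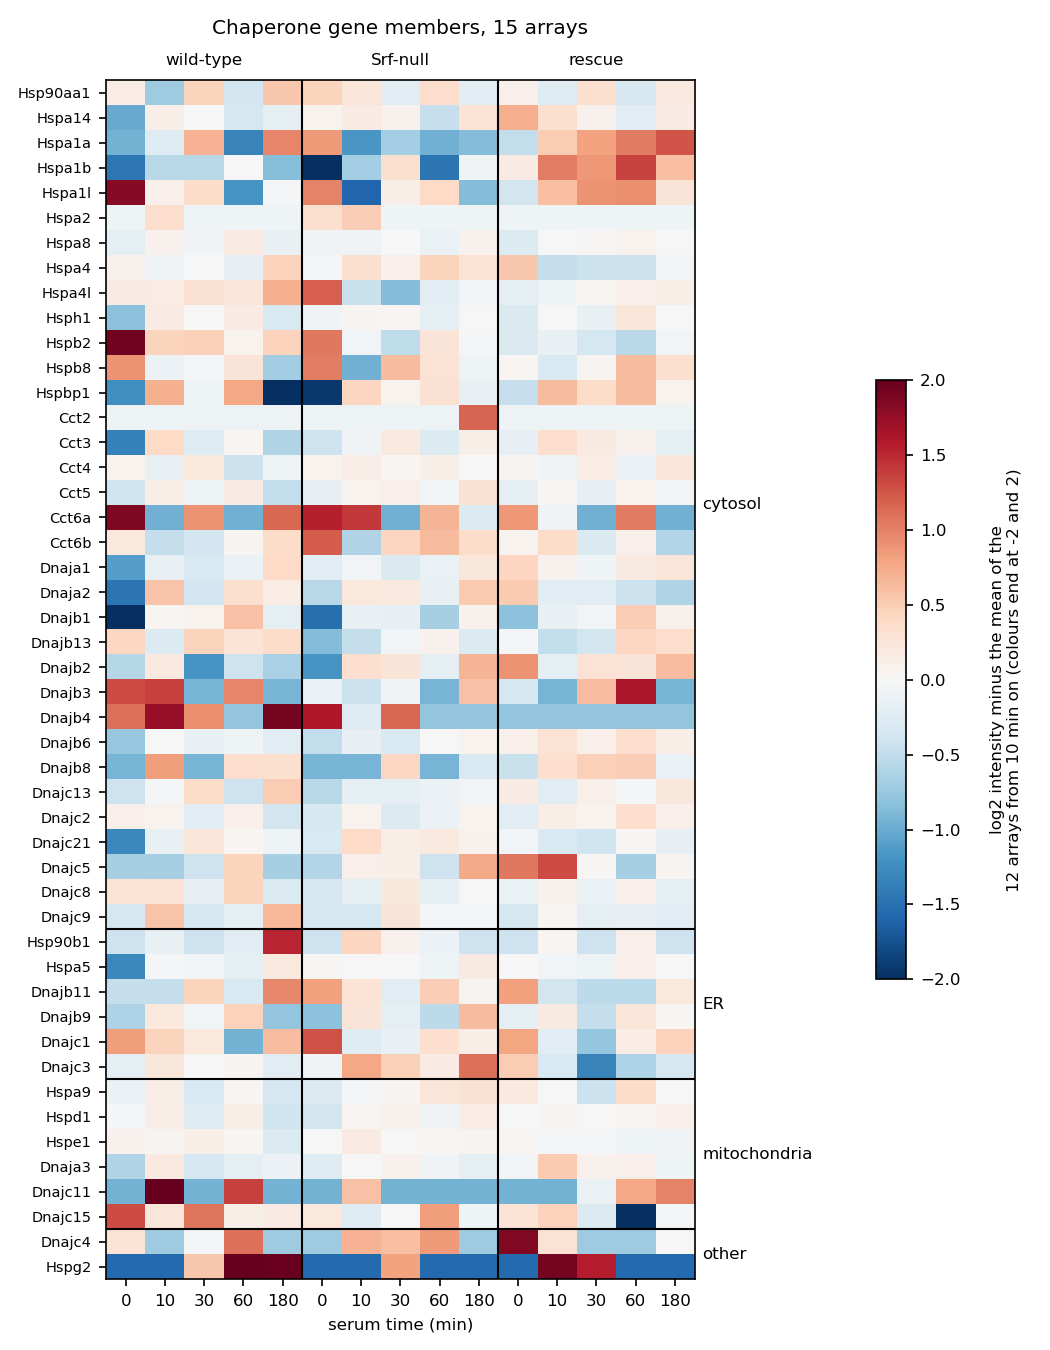
Each row is a tested member and each column an array, by line and serum time. Colour gives the log2 intensity minus the member's mean over the 12 arrays from 10 min on. The 0 min columns of wild-type and Srf-null hold the lowest values of 11 and 7 members. The rows of Hspa8 and Hspe1 stay pale throughout, and that of Hspa5 everywhere but at wild-type 0 min.

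The constitutive members varied little between lines. Hspa8, the constitutive cytosolic HSP70, gave 23329, 21056, 24842 and 19953 units in wild-type cells at 10, 30, 60 and 180 min. It gave 21115, 21868, 20190 and 23329 in Srf-null cells and 21868, 22474, 23054 and 22096 in rescue cells. The 3 ranges overlapped throughout. The difference of rescue minus Srf-null was 0.05 on the log2 scale, with a 95% confidence interval from -0.21 to 0.31. For Hspa5, the ER HSP70 also known as BiP, the 14 arrays other than wild-type 0 min lay between 6409 and 8369, and wild-type 0 min gave 2981. Its Srf-null minus wild-type difference from 10 min on was 0.04 (95% interval -0.18 to 0.26).

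The mitochondrial chaperonin also had a narrow range. Hspd1 (HSP60) lay between 15980 and 23226 over the 12 arrays and Hspe1 (HSP10) between 13146 and 17841, with wild-type 180 min the lowest array for both. Hspa9, the mitochondrial HSP70 known as mortalin, lay between 9471 and 16529. Its intervals for Srf-null minus wild-type (-0.09 to 0.61) and rescue minus Srf-null (-0.51 to 0.20) both included 0. Hsp90aa1, the inducible cytosolic HSP90, lay between 10350 and 24842. Its lowest and highest arrays were both wild-type, at 10 and 180 min, so both ends of its range lay within 1 line. Between these times the 18S control rose from 552 to 16100 in wild-type and from -8.1 to 14900 in rescue cells. In Srf-null cells it fell from 18000 to 2050. Hsp90aa1 changed by 1.26, 0.44 and -0.47 on the log2 scale in wild-type, rescue and Srf-null cells. Rescue 30 min was an exception, with an 18S signal of -160 and Hsp90aa1 at 14.38. The part of the 18S difference was not tested. Hsph1, the stress-inducible HSP110, lay between 4742 and 6897. Dnajb1, the J protein that starts the HSP70 cycle after heat shock, lay between 982 and 2336, with overlapping lines.

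The CCT subunits with a signal on every array were Cct3, Cct4, Cct5 and Cct6b. Cct4 gave 11520, 14797, 9494 and 11860 units in wild-type cells at 10, 30, 60 and 180 min. It gave 14043, 13061, 13827 and 12851 in Srf-null cells and 12136, 14177, 11636 and 15031 in rescue cells. The Srf-null values lay inside the wild-type and rescue ranges. All 6 tested CCT subunits were higher in Srf-null than in wild-type cells, by 0.10 to 0.32 on the log2 scale, and none passed the test (lowest adjusted p = 0.572, limma). The value of Cct2 came from its only Srf-null array above the floor, and of the other 2 probe sets of Cct3 1 gave 0.10 and 1 gave -0.52. With arrays scaled to a common median, 5 of the 6 were lower instead. That scaling moved the median of all probe sets by -0.31, and all 6 lay above this median. Tcp1, the subunit CCT1 that the symbol rule leaves out, differed by -0.31 ± 0.19 (SE, 4 arrays per line) in the same comparison, with an adjusted p of 0.546 (limma).

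Between Srf-null and wild-type cells from 10 min on, 0 of 48 members passed limma's test at an adjusted p under 0.05, where 0.324% of all tested probe sets did. At an unadjusted p under 0.05 there were 2 members, Hspa4l and Hspb2, beside 12.1% of all probe sets. Of the members, 27 were higher and 21 lower in Srf-null cells, with a median of 0.03, and the median over all probe sets was 0.02. Hspa4l, an HSP110 protein, was the only member whose ranges did not overlap, against 5.79% of all probe sets. It gave 379, 421, 405 and 563 in wild-type cells and 251, 186, 295 and 328 in Srf-null cells. All 4 Srf-null values were lower, although the 0 min Srf-null array gave 780, the highest of the 15. The difference of -0.75 ± 0.29 (SE) had an adjusted p of 0.364 (limma).

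Hspb2, a small heat shock protein best known from muscle, gave 1908, 1942, 1457 and 1916 in wild-type cells from 10 min on. Srf-null cells gave 1339, 984, 1663 and 1357, and rescue cells 1262, 1091, 946 and 1348. Wild-type values were the highest, but 1 Srf-null value lay within their range. Rescue and wild-type did not overlap, with a difference of -0.64 ± 0.18 (SE, adjusted p = 0.277 in limma's test). The array labelled wild-type 0 min gave 5330 and Srf-null 0 min 2883, both above every later array. The other probe set of Hspb2 had a mean of -155.6 and was above the floor on 2 arrays only. It gave -0.025 for rescue minus wild-type, a value set by the floor. The level and the line differences of Hspb2 thus rest on 1 probe set.

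Rescue and Srf-null cells gave the only call. From 10 min on, the 3' to 5' ratio of actin was higher on every Srf-null array (1.79, 1.64, 3.83 and 1.94) than on every rescue array (0.989, 1.13, 0.914 and 1.42). Its part in the differences between these lines was not tested. The share of deposited values at or below 0 was 26.7, 39, 41.6 and 37.1% on these Srf-null arrays. On the rescue arrays it was 37.4, 26, 25 and 25.2%, so it was higher in Srf-null cells at all times but 10 min. With this share as a term in the fit, no member was called between these lines. Hspa4, an HSP110 protein that exchanges nucleotide on HSP70, gave 12562, 10809, 13748 and 12243 units in Srf-null cells at 10, 30, 60 and 180 min. Rescue cells gave 7248, 7444, 7470 and 9664, and wild-type cells 9571, 9985, 8949 and 13878. Every rescue value was below every Srf-null value, and wild-type values spread across both. The difference of rescue minus Srf-null was -0.64 ± 0.12 (SE, 4 arrays per line, adjusted p = 0.0416 in limma's test). It was 1 of 48 members, beside 2.25% of all probe sets (1.08% lower and 1.17% higher in rescue), so the count is close to the background. At an unadjusted p under 0.05 there were 7 members, beside 13.6% of all probe sets.

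The Hspa4 call rested on 1 probe set of 4. The chosen one is the brightest. The other 3 gave 0.24, -0.02 and 0.30 for the same difference, and the mean of all 4 gave -0.03 (adjusted p = 0.963, limma). Over 19 alternative settings the adjusted p ran from 0.0127 to 0.963. The call ended in 9 of 12 fits without a single array: wild-type 10 or 30 min, Srf-null 10, 30 or 60 min, or any rescue array. The rescue 0 min array gave 14562, the highest of all 15, and over all 15 arrays 0 of 48 members passed. At an unadjusted p under 0.05 there were then 3, beside 9.19% of all probe sets, and 0.22% of all probe sets passed the adjusted test. Without both doubted 0 min arrays (wild-type and rescue), a setting chosen after seeing the data, Hspa4 passed again. That setting leaves out the rescue array that went most against the call, so it is no separate support.

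**Figure D2:**
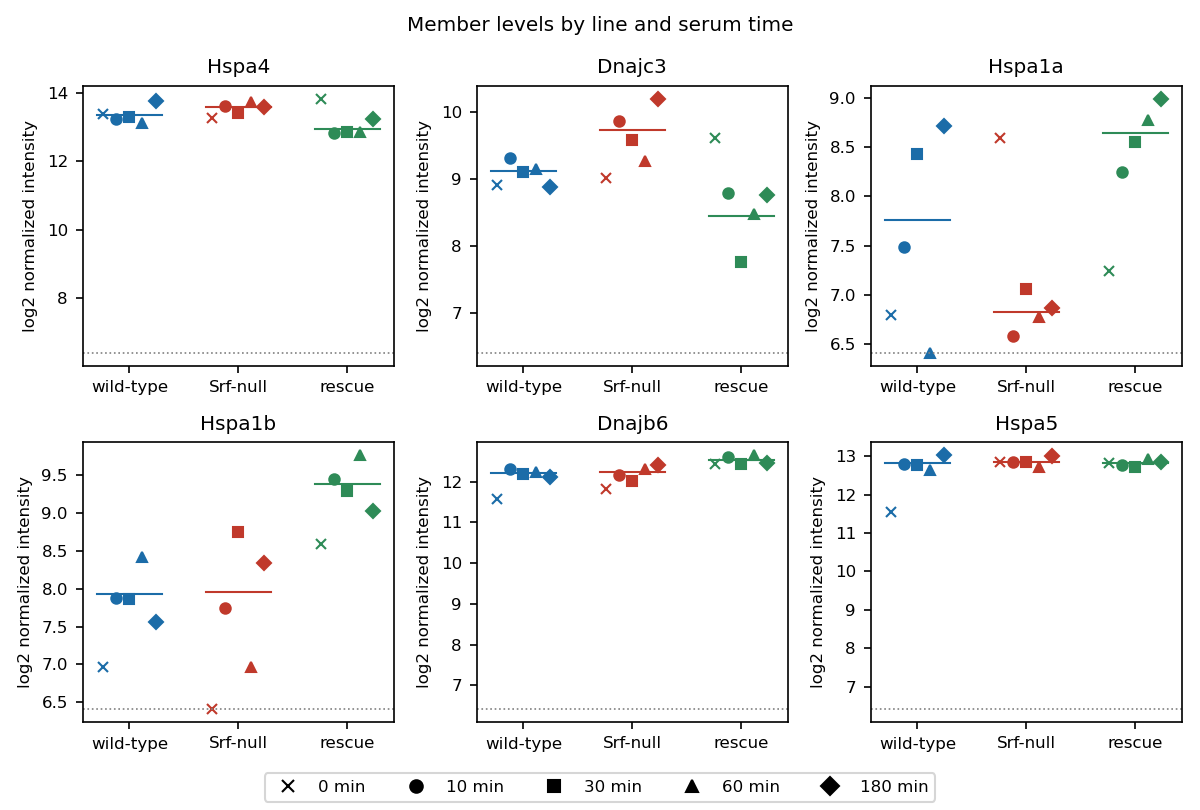
The log2 normalized intensity of 6 members is plotted by line, with 1 symbol per serum time. Horizontal bars are means of the 4 arrays from 10 min on, and the dotted line is the floor (6.41). Rescue symbols of Hspa4 and Dnajc3 sit below those of Srf-null cells and rescue symbols of Hspa1a, Hspa1b and Dnajb6 above them from 10 min on. The 0 min crosses often lie elsewhere, and Hspa5 is level except at wild-type 0 min.

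Dnajc3, an ER J protein known as P58IPK that also restrains the ER stress kinase PERK, gave 940, 766, 618 and 1178 in Srf-null cells from 10 min on. Rescue cells gave 445, 218, 359 and 435, and wild-type cells 641, 552, 571 and 474. Rescue values were below all others and wild-type values lay between, overlapping Srf-null. The rescue minus Srf-null difference was -1.28 ± 0.28 (SE), and it did not pass (adjusted p = 0.0642, limma). All 4 probe sets of Dnajc3 were lower in rescue cells, and the other 3 gave -1.84, -1.83 and -1.86. With the mean of all 4 the difference was -1.70 and passed (adjusted p = 0.0441, limma). It passed in 3 of 19 alternative settings, with adjusted p from 0.0441 to 0.369. The rescue 0 min array gave 782, above every later rescue array and above Srf-null 0 min (521), and over all 15 arrays the difference was -0.91 ± 0.36 (SE, adjusted p = 0.452, limma).

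**Figure D3:**
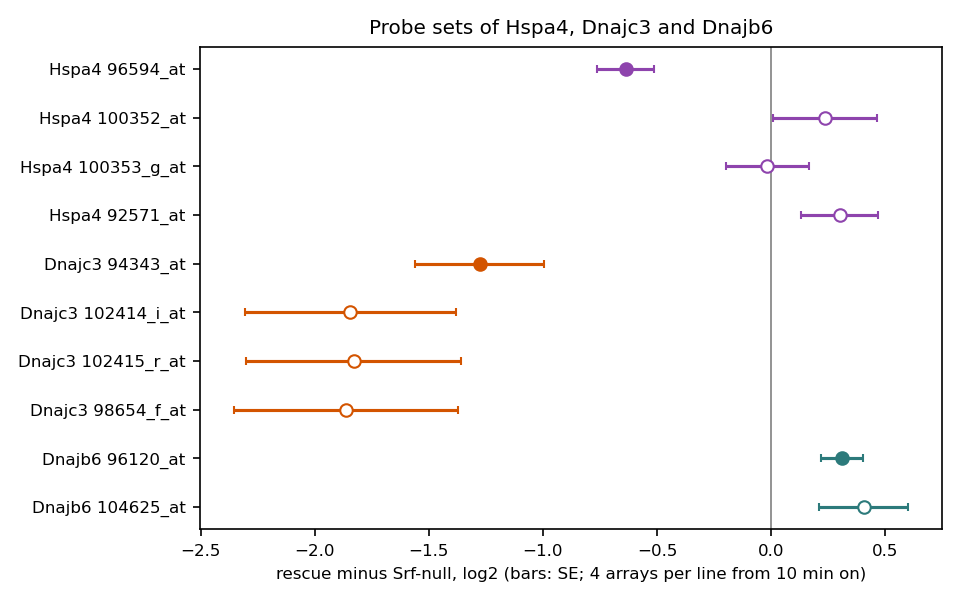
Each point is the rescue minus Srf-null difference of a probe set on the log2 scale over the 12 arrays from 10 min on, with SE bars. Filled points are the chosen probe sets. The 4 probe sets of Hspa4 fall on both sides of 0, the 4 of Dnajc3 lie between -1.86 and -1.28, and both of Dnajb6 lie above 0.

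The inducible HSP70 genes were higher in rescue cells without passing the test. Hspa1a gave 304, 376, 439 and 510 in rescue cells from 10 min on and 95.9, 133, 110 and 117 in Srf-null cells. Wild-type cells gave 179, 345, 44.5 and 422, a range that overlaps both other lines. The rescue minus Srf-null difference was 1.82 ± 0.43 (SE, adjusted p = 0.083 in limma's test, 0.0406 to 0.251 over 19 alternatives). Over these alternatives the difference itself ran from 0.81 to 2.06. Without the wild-type 60 min array it passed. At 0 min the order was reversed, with 388 in Srf-null and 152 in rescue cells, and over all 15 arrays the difference was 1.19 ± 0.56 (SE, adjusted p = 0.555, limma).

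Hspa1b gave 697, 623, 869 and 520 in rescue cells, 234, 232, 341 and 189 in wild-type and 214, 429, 125 and 325 in Srf-null cells. All rescue values were above all values of both other lines. The differences were 1.43 ± 0.45 against Srf-null and 1.45 ± 0.45 against wild-type (SE, adjusted p = 0.191 and 0.323, limma). Because the 2 genes are near-identical copies, their probe sets may read each other's transcript, and the pair is not independent evidence. Hspa1l, the neighbouring copy expressed in testis, gave 1.15 ± 0.51 for rescue minus Srf-null (adjusted p = 0.377, limma), with overlapping ranges.

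Dnajb6, a J protein that suppresses protein aggregation, gave 6294, 5503, 6475 and 5615 in rescue cells from 10 min on. Wild-type cells gave 5108, 4660, 4861 and 4466, and Srf-null cells 4606, 4158, 5123 and 5432. Rescue values were above all others, by a small margin over the highest Srf-null array. The differences were 0.31 ± 0.09 against Srf-null and 0.32 ± 0.09 against wild-type (SE, adjusted p = 0.164 and 0.277, limma). Its other probe set gave 0.41 and 0.38.

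In all, 8 of 48 members (16.7%) had ranges that did not overlap between rescue and Srf-null cells from 10 min on, beside 9.32% of all probe sets. Dnajb6, Hspa1a and Hspa1b were higher in rescue, and Dnaja2, Dnajc21, Dnajc3, Hspa4 and Hspe1 lower. Dnaja2, a cytosolic HSP70 partner, gave 1277, 1280, 1093 and 976 in rescue cells and 1704, 1697, 1327 and 2126 in Srf-null cells. Its difference of -0.56 ± 0.21 (SE) did not pass (adjusted p = 0.293, limma). For Hspe1 the gap was small, at -0.12 ± 0.10.

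Between rescue and wild-type cells from 10 min on, 0 of 48 members passed limma's test, where 0.398% of all probe sets did, and 9 had an unadjusted p under 0.05 beside 9.85% of all probe sets. The 9 were Hspa1b, Dnajb6, Dnaja3 and Dnajc2, which were higher in rescue, and Dnaja2, Dnajb4, Dnajc3, Hspa4 and Hspb2, which were lower. Ranges did not overlap for 5 members (10.4%), beside 5.72% of all probe sets. They were Dnajb6 and Hspa1b, higher in rescue, and Dnajc3, Hspa4l and Hspb2, lower. Dnajb4, a cytosolic J protein, gave 489, 280, -126 and 553 in wild-type cells and at most 74.2 in rescue cells. All 5 rescue values were under the floor, so the fitted difference of -1.74 ± 0.55 (SE, adjusted p = 0.324 in limma's test) depends on that floor.

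Srf-null cells were also set against the mean of both other lines. From 10 min on, 0 of 48 members passed limma's test, beside 1.16% of all probe sets (0.502% higher and 0.659% lower), and 5 had an unadjusted p under 0.05, beside 14.5%. These were Dnajc21, Dnajc3 and Hspa4, higher in Srf-null cells, and Hspa1a and Hspa4l, lower. Over all 15 arrays, 0 members passed in this comparison, in Srf-null minus wild-type and in rescue minus wild-type, beside 0.136%, 0% and 0% of all probe sets. At an unadjusted p under 0.05 these comparisons held 2, 1 and 6 members, beside 10.5%, 9.58% and 7.25%.

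The compartments were also taken apart. From 10 min on, the median difference of rescue minus Srf-null was 0.05 for the 34 cytosolic, -0.14 for the 6 ER and -0.06 for the 6 mitochondrial members, and -0.01 for all tested probe sets. All 6 ER members were lower in rescue, from -1.28 for Dnajc3 to -0.04 for Hspa5, and none passed. With arrays scaled to a common median, which moved the median of all probe sets by 0.24, only 2 of the 6 were lower, and 4 lay below that median. In rescue minus wild-type cells the ER median was -0.27, with 4 of 6 lower. Between Srf-null and wild-type cells the medians were 0.03, 0.02 and 0.07 for cytosol, ER and mitochondria.

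**Figure D4:**
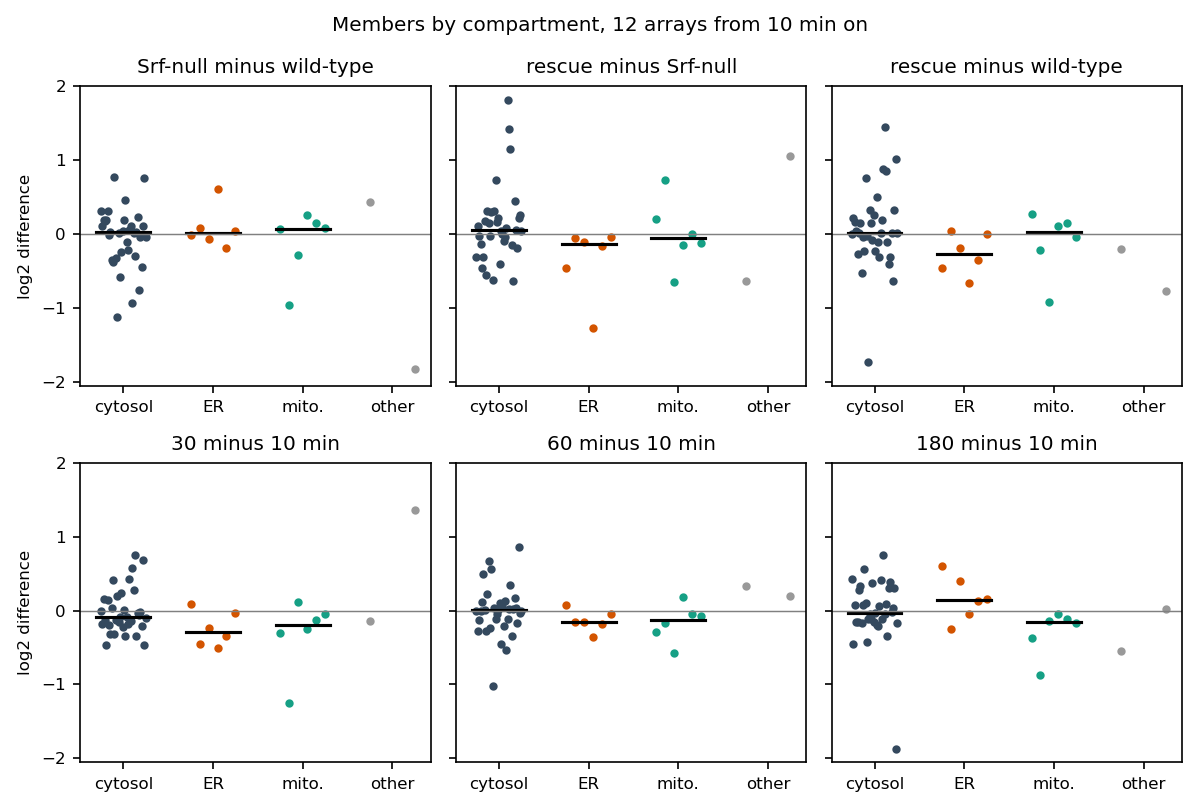
Each point is a tested member's log2 difference over the 12 arrays from 10 min on, by compartment, for the 3 line comparisons and for 30, 60 and 180 min minus 10 min. Black bars are medians. The medians of the cytosol, ER and mitochondria lie between -0.29 and 0.14. The largest differences belong to single members such as Hspbp1, Hspg2, Hspa1a and Dnajb4, and Hspg2 and Dnajb4 lay at the floor on many arrays.

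Serum time was compared over the 3 lines with 10 min as the reference, so all 3 time comparisons share the 10 min arrays. In limma's test 0 of 48 members passed at 30, 60 or 180 min, where 0%, 0% and 0.188% of all probe sets did. At an unadjusted p under 0.05 there were 2, 3 and 5 members, beside 2.11%, 4.35% and 7.11% of all probe sets. Dnaja1, a cytosolic J protein that works with Hspa8, gave 3279, 2940, 3325 and 4802 in wild-type cells at 10, 30, 60 and 180 min. Srf-null cells gave 3503, 2979, 3299 and 4259, and rescue cells 3869, 3426, 4125 and 4318. In each line 30 min was the lowest and 180 min the highest of these arrays. The 180 minus 10 min difference was 0.33 ± 0.10 (SE, 3 arrays per time, adjusted p = 0.638 in limma's test).

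Dnaja3, a mitochondrial J protein known as Tid1, went the other way. It gave 4341, 2966, 3342 and 3477 in wild-type cells, 3791, 4008, 3587 and 3347 in Srf-null cells and 5413, 4025, 4077 and 3570 in rescue cells. The 180 min array was lower than the 10 min array in each line, by 0.32, 0.18 and 0.60 on the log2 scale. At 0 min Dnaja3 was 11.29, 11.63 and 11.84 in wild-type, Srf-null and rescue cells, against 11.76, 11.71 and 11.80 at 180 min. A fall in every line thus holds only against 10 min. The fitted difference was -0.37 ± 0.13 (SE, adjusted p = 0.675 in limma's test).

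Hspa14, a ribosome-associated HSP70, was lowest at 60 min in every line from 10 min on. It gave 1216, 1133, 880 and 984 in wild-type cells at 10, 30, 60 and 180 min, 1254, 1186, 815 and 1348 in Srf-null cells and 1400, 1187, 968 and 1261 in rescue cells. The 60 min values lay below all values of the other 3 times. The 60 minus 10 min difference was -0.54 ± 0.15 (SE), with an adjusted p of 0.987 in limma's test. Dnajb13, a J protein of sperm flagella, was higher than at 10 min in each line at all later times, by 0.68 ± 0.23 at 60 min and 0.56 ± 0.23 at 180 min (SE, adjusted p = 0.987 and 0.701, limma). At 0 min Dnajb13 was 10.24, 8.96 and 9.78 on the log2 scale in wild-type, Srf-null and rescue cells, against 9.56, 9.34 and 9.34 at 10 min. The 10 min reference was thus lower than 0 min in wild-type and rescue cells. Its other probe set gave 0.58 for 180 minus 10 min, but -1.57 for rescue minus Srf-null against 0.16 for the chosen one. Hspbp1, which makes HSP70 release its nucleotide, gave -1.87 ± 0.77 for 180 minus 10 min (SE, adjusted p = 0.701 in limma's test). The size came from the wild-type 180 min array, at 25.5 against 1093 to 1967 at 10 to 60 min.

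Single-array differences from 10 min had the same direction in all 3 lines for 14 of 48 members at 30 min (29.2%), beside 14.6% of all probe sets. The shares were 22.9% at 60 min and 22.9% at 180 min, beside 20.3% and 19.2%. A probe set at the floor on both arrays of a line has a difference of 0 there, as Cct2 had at 30 min, and cannot count. Of the 55 members, 30 lay above the floor on all 15 arrays. The shares of all probe sets were not matched for level, so the gap at 30 min is not read as a trait of the members. At 30 min 5 members were higher and 9 lower in all lines, the latter including Hsph1, Hsp90b1 and Dnajc3. At 60 min 8 were lower, among them Cct3, Cct4, Hspd1 and Hspe1, and 3 were higher. At 180 min Dnaja1, Dnajb13, Dnajc1, Dnajc13, Hspa1a, Hspa4l, Hspa5 and Hspb2 were higher and Dnaja3, Hspbp1 and Hspe1 lower. Most of these steps were small: Hspa5 was higher by 0.22, 0.17 and 0.06 on the log2 scale in wild-type, Srf-null and rescue cells.

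**Figure D5:**
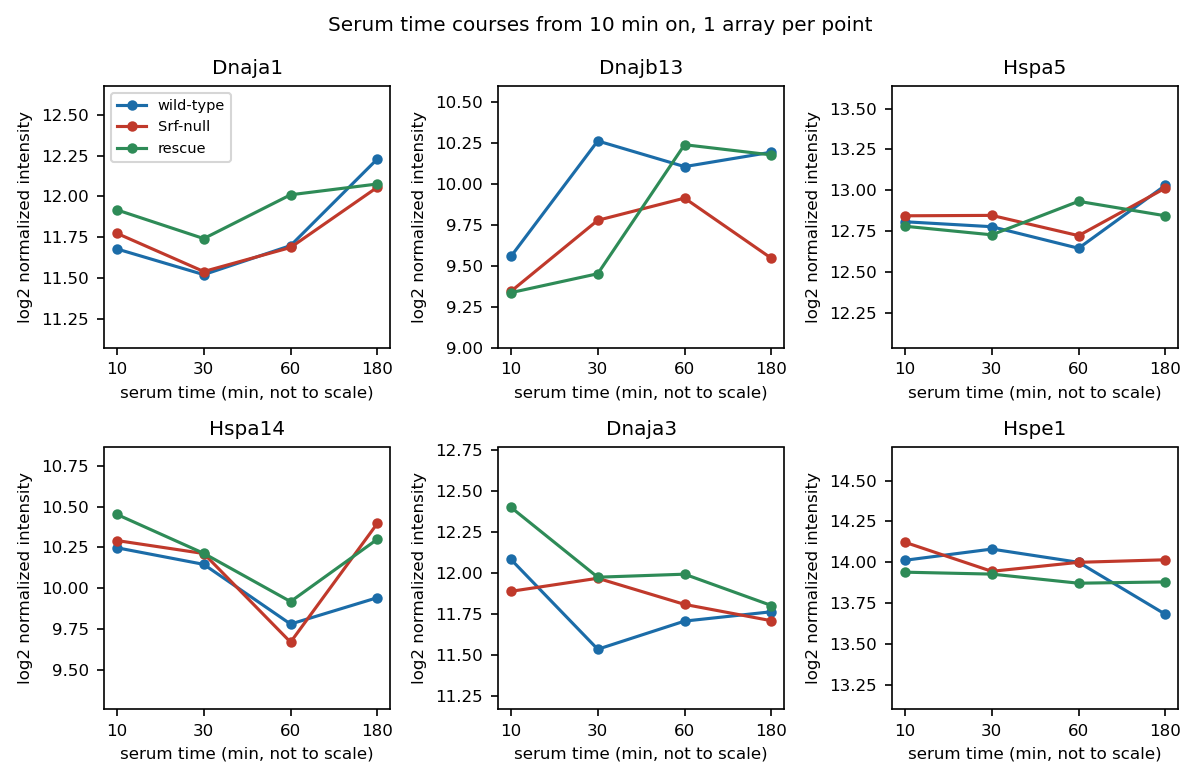
The log2 normalized intensity of 6 members is plotted against serum time (equal steps, not to scale), with 1 line per cell line and 1 array per point. From 10 min on, Dnaja1 is highest at 180 min and Hspa14 lowest at 60 min in each line, while at 0 min rescue Dnaja1 is higher (4889) and wild-type Hspa14 lower (559) still. Dnaja3 ends below its 10 min value, and Hspe1 is lowest in the wild-type line at 180 min.

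Serum phases were also compared within each line, with 0 and 10 min as baseline, 30 and 60 min as early and 180 min as late. The late phase of a line is a single array, which is assumed to vary as the arrays of the other phases do. In limma's test 0 of 48 members passed in the early or late phase of any line. Over all probe sets 0%, 0.0732% (0.0418% higher) and 0% passed in the early phase of wild-type, Srf-null and rescue cells, and 0.282%, 0.0314% and 0% in the late phase. At an unadjusted p under 0.05 there were 0, 1 and 3 members in the early phase and 5, 1 and 0 in the late phase. Beside them stood 2.54%, 8.17% and 3.98% of all probe sets early and 8.46%, 4.96% and 3.62% late. Averaged over the lines, 0 members passed early (0 unadjusted) and 0 late (1 unadjusted), beside 0% and 0.0523% of all probe sets passed and 2.54% and 4.05% unadjusted.

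The late response of Srf-null cells was set against the mean late response of both other lines. In limma's test 0 of 48 members passed, beside 0.0105% of all probe sets, and 3 had an unadjusted p under 0.05, beside 7.76%. The early response gave 0 passed and 0 unadjusted, beside 0.0209% and 8.61%. Cct2 gave the lowest p in the late comparison (1.26 ± 0.24, SE, adjusted p = 0.261), from a single Srf-null array at 205 against values of -557 to -178 on the other 4. In wild-type cells 2 ER members had an unadjusted p under 0.05 in the late phase, which is the 180 min array alone. Hsp90b1 gave 325 there against -46.3 to 102 on the other wild-type arrays, and Dnajb11, an ER J protein, 1609 against 590 to 1125. Their late minus baseline differences were 1.80 ± 0.42 and 1.44 ± 0.59 (SE, adjusted p = 0.193 and 0.547, limma). At 180 min Hsp90b1 gave 47.8 in Srf-null and 11.1 in rescue cells, both under the floor. The 18S control gave 16100 at wild-type 180 min, against 3.19 and 552 at 0 and 10 min, the baseline. Over all lines Dnajb11 was 9.89 to 10.65 on the log2 scale on arrays with an 18S signal of 12200 or more. On the rest it was 9.14 to 9.74. The part of the 18S difference in the late values was not tested.

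Partners of the members were read from 3 lists of other folding genes. Of the 16 tested cytosolic partners (21 listed), which include HSP90 co-chaperones, prefoldin subunits and Bag proteins, 0 passed limma's test in any line comparison from 10 min on, and 2, 1 and 1 had an unadjusted p under 0.05 in Srf-null minus wild-type, rescue minus Srf-null and rescue minus wild-type. Over all probe sets 12.1%, 13.6% and 9.85% had such a p. Of the 9 tested mitochondrial genes (12 listed) 0 passed, with 1, 1 and 0 unadjusted. Of the 19 tested ER genes (25 listed) 1 passed, Serpinh1, in rescue minus Srf-null, where 2.25% of all probe sets passed, with 3 unadjusted in each comparison. Serpinh1 encodes HSP47, the collagen chaperone of the ER. It gave 443, 536, 234 and 155 in Srf-null cells from 10 min on, 1296, 820, 1048 and 402 in wild-type and 2481, 2425, 1927 and 1331 in rescue cells. Rescue values were above all others. The difference of rescue minus Srf-null was 2.70 ± 0.26 (SE, adjusted p = 0.00321 in limma's test), and Srf-null minus the mean of both other lines was -2.06 ± 0.22 (SE, adjusted p = 0.00561, limma). The order was reversed at 0 min, with 584 in Srf-null, 390 in wild-type and 174 in rescue cells. Over all 15 arrays 0 of these 19 ER genes passed in either of these comparisons. Summed fibroblast markers gave 1121 to 1495 in Srf-null, 1168 to 2129 in wild-type and 1712 to 1879 in rescue cells from 10 min on, and their part was not tested.

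Stress markers of the ER gave no call. Xbp1, a transcription factor of the unfolded protein response, differed by -0.36 ± 0.22 in rescue minus Srf-null cells, and Atf4, which is translated under stress, by -0.05 ± 0.15 (SE, adjusted p = 0.531 and 0.933, limma). Ddit3, the CHOP factor induced in prolonged stress, gave 1.20 ± 0.63 (adjusted p = 0.445, limma). Pdia4, a disulfide isomerase, gave -0.21 ± 0.16 (adjusted p = 0.631, limma). Over serum time, Atf4 gave 0.63 ± 0.17 for 60 minus 10 min and Xbp1 -0.84 ± 0.26 for 180 minus 10 min (SE, adjusted p = 0.987 and 0.631, limma). At 0 min Xbp1 gave 633, 1318 and 229 in wild-type, Srf-null and rescue cells, against 513, 1095 and 676 at 180 min. A fall of Xbp1 in every line thus holds only against 10 min. Atf4 gave 9042, 9783 and 19121 at 0 min in these lines, against 15927, 14954 and 15717 at 60 min. In rescue cells Atf4 was thus higher at 0 than at 60 min.

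Other members had large fitted differences with wide errors. Dnajc11, a J protein of the mitochondrial membrane, was above it on 6 arrays and lay between -906 and 697 over the 12 arrays. Its difference of 30 minus 10 min was -1.25 ± 0.86 (SE, adjusted p = 1 in limma's test). Dnajc15, a J protein of the mitochondrial import motor, gave -0.65 ± 0.57 for rescue minus Srf-null, and Dnajb2, a J protein known from neurons, 0.78 ± 0.37 for Srf-null minus wild-type (SE, adjusted p = 0.675 and 0.447, limma). Hspb8, a small heat shock protein of chaperone-assisted autophagy, was above the floor on all 15 arrays. It gave 0.86 ± 0.39 for 60 minus 10 min (SE, adjusted p = 0.987 in limma's test). At 0 min Hspb8 was 9.74, 9.87 and 8.89 on the log2 scale in wild-type, Srf-null and rescue cells. It was 8.74, 7.88 and 8.55 at 10 min and 9.11, 9.14 and 9.49 at 60 min. The 10 min reference was thus lower than 0 min in every line, and only rescue cells were higher at 60 than at 0 min.

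Hspg2, the matrix gene that the symbol rule takes in, was above the floor on 6 of 15 arrays, at 361, 1417 and 977 in wild-type cells at 30, 60 and 180 min, 437 in Srf-null cells at 30 min, and 943 and 741 in rescue cells at 10 and 30 min. Its line differences did not pass (lowest adjusted p = 0.548, limma).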

How the data were processed

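The authors deposited linear intensity values, 1 per probe set and array, for 12654 probe sets, of which 66 are controls. The software behind them is not given in the sources used here. The 15 arrays were quantile-normalized, then floored at the 40th percentile (84.98, log2 6.41) and log2-transformed. Probe sets above it on at least 2 arrays (9558) were tested. Symbols came from the platform annotation: 10298 probe sets had 1 symbol, 363 several and 1993 none listed. The 55 members had 73 probe sets.

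All 9558 probe sets were fitted with limma 3.58.1 under R 4.3.3, using lmFit and eBayes with an intensity trend, with a call at a Benjamini-Hochberg adjusted p under 0.05. The additive model of line and time had 8 residual degrees of freedom over 15 arrays and 6 over the 12 arrays from 10 min on. The model of line and phase had 6. A call of Srf-null against both lines also needed that direction against each. The model fits were also run on simulated data. Those values were independent and normal, without the floor or shared array effects, so the run cannot show how the fits handle either. Fold changes of genes at the floor are limits set by it, and the number of arrays limits the precision.

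Members and lists were chosen with earlier results of these data known. Named were members with a call, the 3 largest differences in each direction of each comparison, a fixed set by role, and partners with a call or in a fixed set. Members whose ranges did not overlap, those with a low unadjusted p and small counts were named after their values were seen. Alternatives were median scaling, a floor at the 50th percentile, no filter, the mean of a gene's probe sets, no trend, technical terms, a baseline of 10 min, single arrays left out, and, chosen after seeing the data, both doubted 0 min arrays left out and the shorter heat shock element.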

Additional observations from a re-analysis of the deposited data

Results flagged for a closer look

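For each of the 48 tested members, the 5 arrays of a line were examined for 1 array far from the others (a gap over 0.71 of the range on the log2 scale, Dixon's 95% value for 5). This marked 20 of 141 groups, where chance marks about 5%. Of these, 12 were later arrays and the rest 0 min arrays (5 wild-type, 2 Srf-null and 1 rescue). Wild-type 0 min was low for Dnajb1 (46.8 against 1360 to 2340), Dnajb6 (3050 against 4470 to 5110), Dnajc21 (656 against 1440 to 1890) and Hspa5 (2980 against 6410 to 8370), and high for Hspb2 (5330 against 1460 to 1940). Srf-null 0 min was high for Hspa1a (388 against 95.9 to 133) and low for Hspbp1 (303 against 1040 to 1560). Rescue 0 min was low for Hspa8 (18300 against 21900 to 23100).

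Among later arrays, wild-type 180 min was high for Hsp90b1 (325 against -46.3 to 102) and Hspa4l (563 against 379 to 421) and low for Hspe1 (13100 against 16400 to 17300). Wild-type 10 min was low for Dnajb13 (753 against 1100 to 1230), and wild-type 60 min high for Dnajc5 (183 against -91.8 to 101). Srf-null 60 min was low for Hspa14 (815 against 1180 to 1350), and rescue 60 min low for Dnajc15 (98.2 against 385 to 637). In the other 5 groups the remaining arrays lay at or under the floor, so any array above it is marked. These were Cct2 at 180 min in Srf-null (205 against -557 to -178) and rescue cells (85.8 against -331 to 37.7), Dnajc11 at 10 min in Srf-null cells (246 against -1200 to -1.8), Hspa2 at 10 min in wild-type cells (115 against -93.6 to 37.2) and Hspg2 at 30 min in Srf-null cells (437 against -690 to 84.5).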

How the results depend on the processing

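Counts of called members were recomputed under other settings over 21 comparisons, which gave 171 counts, of which 155 were unchanged. The main count was 0 in every comparison but rescue minus Srf-null from 10 min on. A count can also stay unchanged with another member called. For rescue minus Srf-null from 10 min on (1 call), median scaling, no filter and the share of values at or below 0 as a term gave 0. A floor at the 50th percentile gave 2 (Dnajc3, Hspa4), and so did an 18S ribosomal RNA term (Dnaja2, Hspa4). The mean of a gene's probe sets and a fit with no trend gave 1 each, Dnajc3 in place of Hspa4. Leaving out single arrays gave 0 to 2. Over 15 arrays, leaving out both doubted 0 min arrays gave 1 (Hspa4) in place of 0. The 18S term gave 1 (Hspa4) for Srf-null against the mean of both lines from 10 min on. With 10 min alone as baseline, the early phase gave 1 (Hspa2) in Srf-null cells and 1 in the mean of lines. The late phase then gave 2 in wild-type (Hspa2, Hspbp1), 2 in Srf-null cells and 2 in the mean of lines (Cct2, Hspa2 in both), and its difference 1 (Cct2). Without a filter Cct2 was called in the late phase of Srf-null cells, the mean of lines and the difference (1 each). Leaving out single arrays gave 0 to 2 for the early and 0 to 3 for the late wild-type phase, both highest without wild-type 10 min. It gave 0 to 1 (Cct2) for the late Srf-null phase and its difference. The causes were not tested.

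The 59 member differences with an unadjusted p under 0.05 in limma's test were refitted under these settings. They were picked for that p, and the refits share most arrays, so a kept direction is no separate support. Of 1212 such values, 1209 kept their direction. Those that did not were Hspa4 in rescue minus wild-type with the mean of probe sets (0.03), and, with the share term, Hspa2 in the early Srf-null phase (0.12) and Hsp90b1 in the late difference (0.70). The floor at the 30th percentile was not run because that value lies below 0 (-10.9). Leaving out a 180 min array gives no value for that line's late phase. No paired analysis was possible because the numbers shared by the lines are serum times, which the line models already hold as a term. Members near the floor (Cct2, Hsp90b1, Hspa2, Dnajb4, Hspg2) are limited by low signal.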
